A study of Mus musculus with 15 samples.

Results

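The genes described here encode the proteins of the cytosolic ribosome. Their RNA was sequenced from striatum taken at 6 months of age. Members were the rows of the count table that map to protein-coding genes with a symbol of Rpl or Rps followed by a digit, together with Rplp0, Rplp1, Rplp2 and Rpsa. Pseudogenes, the Rps6k kinases and 1 other gene, not analysed here, were left out. This gave 85 genes of 54232 in the table. Of these, 46 encode proteins of the large subunit, 30 encode proteins of the small subunit and 8 are paralogs with a suffix to the parent's name. The remaining gene, Rps19bp1, matches the letters of the rule but encodes a nucleolar protein that binds Rps19. After the filter on low counts 82 members were tested. The 3 below the filter were the paralogs Rpl10l, Rpl36al and Rpl39l.

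The libraries came from E1 mice (n = 4), KI-96 mice (n = 4) and WT mice (n = 7), with 1 library per mouse. The labels name the genotypes E1 and KI-96 but not their alleles, the strain or the sex; the title places them in a study of RAN translation in knock-in mice that model Huntington's disease. RAN translation is protein synthesis from repeat-expanded RNA that needs no start codon. Total counts ran from 14678565 to 26388542 per library, and the members took 179207 to 405052 counts of each. All 10 markers of spiny projection neurons, the main neurons of the striatum, were present in every library, the lowest being Tac1 with at least 110 CPM.

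The ribosome joins a small subunit, which decodes the mRNA, to a large subunit, which forms the peptide bond. Most of its proteins are needed in equal numbers, and their mRNAs are known for a run of pyrimidines at the very start, the TOP tract, through which mTORC1 signalling controls their translation. Because few of these genes have an active second copy but most have many processed pseudogenes, their reads are among the harder ones to place.

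The libraries differed in X- and Y-linked transcripts. Xist, the RNA that silences an X chromosome in female cells, had 891 to 1626 CPM in 9 libraries: all 4 of E1, all 4 of KI-96 and WT replicate 1. It had 0.269 to 3.00 CPM in the other 6 WT libraries. The sum of 4 Y-linked genes was at most 0.132 CPM in the first 9 and 158 to 205 CPM in these 6. Genotype and this difference can therefore hardly be told apart in either comparison with WT, where WT replicate 1 is the single overlap. The comparison of KI-96 with E1 is not touched by it. KI-96 replicate 3 also stood apart, as described below, and values without it are given where it moves them most.

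Start sites were read first, because a TOP tract is the sequence that these genes are best known to share. RefSeq promoters (GRCm38) were matched for 65 members. In the 30 bases from 10 before to 20 after the annotated start, 46.2% of the 65 held a run of at least 7 letters that were all C or T on the sense strand, and so did 17.9% of the 27025 genes with a promoter. On the opposite strand the shares were 4.62% of the members and 20.3% of all genes. The letters CTTT were present in 27.7% of the members and 11.4% of all genes. A missing run says only that these letters are not in this window, and annotated starts can lie some bases from the used ones. Shown are 3 members with a run, in capitals, and 2 without one, each with its GRCm38 position:
Rpl19, chr11:98026914-98026943, plus strand: TCTCCCCTTCgcagataatgggcggagcct
Rpl18, chr7:45718061-45718090, plus strand: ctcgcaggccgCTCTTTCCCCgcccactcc
Rps27, chr3:90213629-90213658, minus strand: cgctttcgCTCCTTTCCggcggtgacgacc
Rps28, chr17:33824543-33824572, minus strand: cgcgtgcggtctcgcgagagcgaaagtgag
Rpl23, chr11:97782420-97782449, minus strand: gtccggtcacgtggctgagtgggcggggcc
Rps27 and Rps28, which encode small-subunit proteins, return below as the members with the smallest p among those lower in KI-96 than in E1; one has a run here and the other has none.

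Levels were compared per kilobase of the principal transcript, as CPM per kb. In WT the highest was Rplp1, a protein of the stalk that recruits elongation factors, with 1057 ± 163 CPM per kb (SD, n = 7). Next came small-subunit genes: Rps21 with 721 ± 108, Rps29 with 624 ± 112, Rps27 with 585 ± 67.7 and Rps15 with 572 ± 49.6 CPM per kb. Every WT library had more Rplp1 per kb than any WT library had Rps21. Of the 84 pairs of neighbours in the order of levels, 5 did not overlap between WT libraries, so most of the order lies within the spread. The order also depends on the length used. Per kb of all annotated exon bases, Rplp1 kept rank 1, while Rps15 had rank 2, Rps21 rank 5 and Rps27 rank 12. The lowest were paralogs and Rpl24. Rpl10l, a paralog known from testis, had 0 counts in all 15 libraries, which allows up to 0.107 to 0.218 CPM per library (3 counts, counting error only). In WT, Rpl39l had 0.112 ± 0.153, Rpl36al 0.453 ± 0.275, Rpl3l 0.684 ± 0.199 and Rpl24 0.805 ± 0.281 CPM per kb. Rpl3l is known as the form of Rpl3 in heart and skeletal muscle.

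Rpl24 encodes a core protein of the large subunit, so its place among the paralogs was followed further. Every 100-base window of each member's transcript was looked up in the transcripts of all other annotated genes, on both strands. At least 1 window was copied exactly in another gene for 75 members, and over 50% of windows for 35. Exons of another gene overlapped those of 17 members, and covered over 50% of the exon bases of 6. An overlapping gene can also count as a copy of the windows it covers, so the measures are not independent. Exactly 4 subunit genes had both over 50% of windows copied and over 50% of exon bases overlapped: Rpl13a, Rpl23a, Rpl24 and Rpl35. They had 0.805 to 10.5 CPM per kb in WT. The 28 subunit genes that were mostly copied but not mostly overlapped had a median of 238 CPM per kb. The 43 that were neither had 201. The 1 subunit gene that was mostly overlapped but not mostly copied had 166 CPM per kb. Reads from a copied window match both genes equally. Reads in exons overlapped by a gene on the opposite strand cannot be placed without strand. Overlap was counted here on either strand. How the authors' counting treated either is not stated, so the values of these 4 genes are uncertain.

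**Figure D1:**
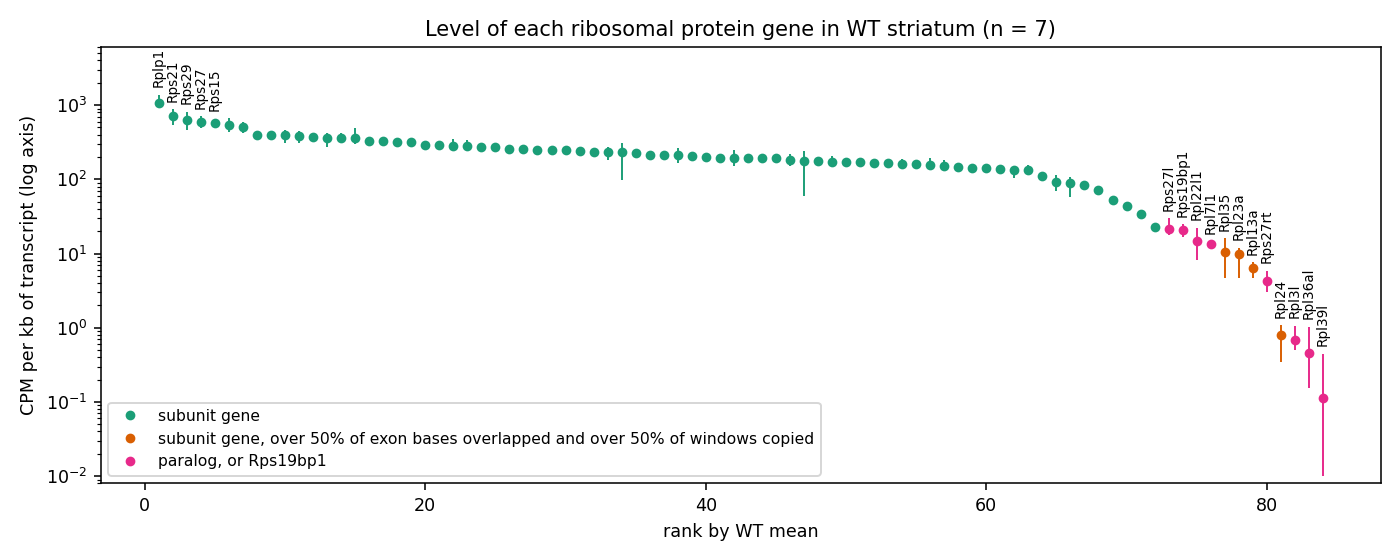
Level of each member in WT striatum in CPM per kb of transcript (log axis), ordered by the mean of 7 libraries; points are means, lines run over the lowest to the highest library, with values under 0.01 drawn at 0.01, and Rpl10l, with 0 counts, is not drawn. Rplp1 stands above all others at 1057 CPM per kb, and the 4 subunit genes that are mostly overlapped and copied lie between 0.805 and 10.5 CPM per kb among the paralogs.

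E1 was compared with WT to ask whether the genotype changed these genes. No member passed the threshold (adjusted p under 0.05, edgeR's quasi-likelihood test): 0 of 82, where 0.00547% of all 18278 genes tested were called. At an unadjusted p under 0.05 there were 3 members, against 8.75% of all genes. All 3 were higher in E1, where 3.69% of all genes were higher and 5.06% lower at that p. DESeq2 and limma-voom each called 0 members, with 0.337% and 0.0109% of all genes called. Without KI-96 replicate 3, which enters the common estimate of spread, 15 members had an unadjusted p under 0.05, against 12.3% of all genes in that fit. The members' fold changes were small and mostly positive: 75 of 82 were above 0, with a median of 0.11 on the log2 scale, while 49.7% of all genes were positive with a median of -0.00. Libraries of the groups overlapped: the members' median deviation from the WT mean was 0.06 to 0.15 in E1 and -0.07 to 0.12 in WT. WT replicate 7 had 72 of 82 members above the WT mean, and E1 replicate 2 had 56. The share of counts that fell on members was 1.56% ± 0.0811 in E1 and 1.44% ± 0.0897 in WT (SD, n = 4 and 7).

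The positive tilt was alike in both subunits. In E1 against WT, 43 of 46 large-subunit genes and 27 of 30 small-subunit genes had positive fold changes, with medians of 0.12 and 0.10. It was not confined to the cytosolic ribosome. Mitochondrial ribosomal proteins had 70 of 77 positive (median 0.13), nuclear-encoded respiratory chain subunits 66 of 74 (0.10) and translation factors 32 of 39 (0.10). Short genes outside the members, with under 1 kb of exon and over 10 CPM, were 0.11 to 0.24 above the WT mean in the 4 E1 libraries by their median, on the log2 scale. The same median was -0.11 to 0.13 in the WT libraries, so the groups overlapped. None of these lists had a member past the threshold. As RNA came from whole tissue, fewer cells of a type and less RNA per cell cannot be told apart in any of these results.

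Rpl3, a core protein near the peptidyl transferase centre, had the smallest p of the members in E1 against WT. It lies at chr15:80077791-80091868 (minus strand). It had 508, 343, 394 and 463 CPM in the E1 libraries, and 225 to 361 CPM with a median of 266 in WT. The lowest E1 library lay below the highest WT library, so the groups overlapped. The log2 fold change was 0.58 (SE 0.18), with an adjusted p of 0.448 by edgeR. With the 9 libraries of high Xist marked by a covariate it was 0.33. Rpl7l1, a paralog of Rpl7 with a known part in making the large subunit, had 43.0, 39.0, 41.3 and 40.9 CPM in E1, and 31.9 to 37.4 with a median of 33.9 CPM in WT. These groups did not overlap (log2 fold change 0.25, SE 0.09, adjusted p 0.484). Rps23, a protein of the decoding centre, averaged 237 ± 15.2 CPM in E1 and 210 ± 11.2 CPM in WT (log2 fold change 0.18, adjusted p 0.559).

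Groups did not overlap for 6 of the 82 members, all higher in E1: Rpl7l1, Rpl18, Rpl27, Rpl32, Rps16 and Rps19. Among all genes 0.892% were higher in E1 without overlap. Rpl32, for example, had 117, 117, 127 and 117 CPM in E1, against 93.1 to 107 in WT with a median of 103 CPM. Rps16 had 184 to 198 CPM in E1 and 147 to 173 CPM in WT. Their adjusted p-values by edgeR were 0.572 and 0.606. The 3 members with the smallest p among the negative fold changes were Rpl3l (-0.38, adjusted p 0.697), Rps26 (-0.09, adjusted p 0.879) and Rpl24 (-0.23, adjusted p 0.916).

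Markers of other cell types moved between the same groups. The summed level of 10 markers of cortical excitatory neurons was 54.5 to 1273 CPM in E1, 70.9 to 176 CPM in KI-96 and 70.6 to 1134 CPM in WT, and 9 of the 10 were positive when E1 was set against WT. None of these markers was at 0 in any group. Without E1 replicate 2 and WT replicate 3, the libraries highest in them, the members' median was 0.13 with 77 of 82 positive. E1 replicate 3 was close behind, with a mean log2 CPM of 4.82 for these markers against 5.57 and 5.39. It stayed in that fit, where WT libraries reached at most 2.73, so cortical markers still differed between the groups. The 5 blood genes were all positive, and none was at 0 in any group. Their summed level was 61.1 to 513 CPM in E1, 87.2 to 142 CPM in KI-96 and 79.2 to 216 CPM in WT. In the fit without KI-96 replicate 3, 0 of 9 myelin and 1 of 6 astrocyte markers were positive in E1 against WT (medians -0.33 and -0.04). All 4 ependymal markers were positive (0.43). Summed myelin markers had 7012 to 16827 CPM in E1 and 10976 to 15886 CPM in WT. The part of blood and of these other cell types in the members' tilt was not tested. Marking the libraries of high Xist in the fit gave a median of 0.20 with 78 of 82 positive, a value that rests on WT replicate 1 alone for WT. That library had 60 of its 82 members below the mean of the other 6 WT libraries, by a median of -0.09 on the log2 scale.

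**Figure D2:**
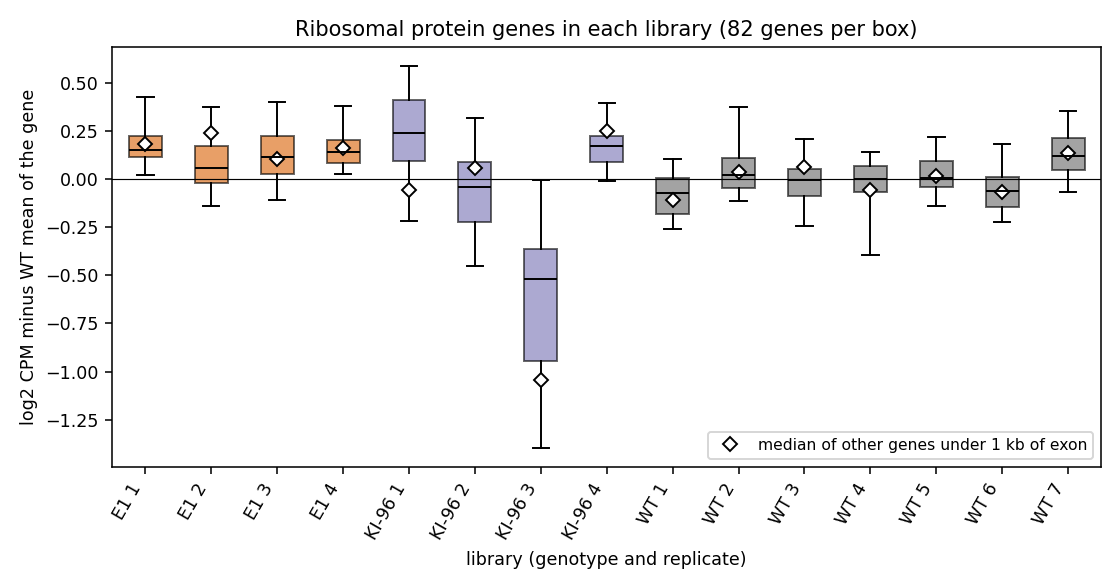
For each library, the log2 CPM of the 82 tested members minus each gene's WT mean (boxes: quartiles and median, whiskers: 5th to 95th percentile), with the median of other genes under 1 kb of exon as a diamond. The E1 medians lie between 0.06 and 0.15, and KI-96 replicate 3 lies at -0.52, below all other libraries.

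In KI-96 the libraries differed from each other more than the genotype did from WT. The median deviation of the members from the WT mean was 0.24 in KI-96 replicate 1, -0.04 in replicate 2, -0.52 in replicate 3 and 0.17 in replicate 4, on the log2 scale. In replicate 3, 77 of 82 members were below the WT mean and 68 were below every WT library. The members took 0.964% of counts in this library and 1.29% to 1.66% in the other 14. In replicate 1 as many as 37 members had their highest value of all 15 libraries.

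The shortfall in KI-96 replicate 3 was graded by length. The 28 members with the shortest transcripts (345 to 633 bases) had a median deviation of -0.70, the middle 27 of -0.54 and the 27 longest of -0.37. Spearman's rho between transcript length and deviation was 0.40 over the 82 members of this library, given as a description. Genes outside the members moved unequally in KI-96 replicate 3. Short genes had a median of -1.04, hosts of snoRNAs -0.98, respiratory chain subunits -0.97 and mitochondrial ribosomal proteins -0.56. Other TOP mRNAs had -0.20, genes of ribosome biogenesis -0.15, translation factors -0.04 and regulators of TOP translation 0.20 in this library. Mitochondrially encoded transcripts took 3.62% of its counts, the lowest share among all libraries. Their part in the members' low level was not tested. Rpl12, a protein at the base of the stalk, had 36.3 CPM in this library and 187 to 224 CPM in the other KI-96 libraries, against 151 to 202 CPM in WT. Its deviation of -2.27 on the log2 scale was exceeded only by that of Rpl24 (-2.61), which had 0 counts here and under 1 CPM in every library.

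Against WT, KI-96 had 0 of 82 members past the threshold by edgeR, as did all 18278 genes (0%). At an unadjusted p under 0.05 there were 5 members, against 10.5% of all genes. Of these, 4 were higher in KI-96 (5.8% of all genes) and 1 was lower (4.68%). DESeq2 called 2 members, Rpl3 (adjusted p 0.00893) and Rpl23a (adjusted p 0.0372), and 0.437% of all genes; limma-voom called 0 (0.00547% of all genes). The median log2 fold change was -0.05 with 34 of 82 positive, where 47.9% of all genes were positive. Without KI-96 replicate 3 it was 0.10, with 59 of 82 positive and 23 members at an unadjusted p under 0.05 (10.9% of all genes in that fit), so this library turned the direction. Marking the libraries of high Xist gave 0.06 with 56 positive.

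Rpl3 again had the smallest p. It had 682, 349, 462 and 495 CPM in KI-96, and 225 to 361 CPM with a median of 266 in WT. KI-96 replicate 2 lay within the WT range and the other 3 libraries lay above it. The log2 fold change was 0.80 (SE 0.17, adjusted p 0.241 by edgeR), and with the libraries of high Xist marked it was 0.55 (adjusted p 1.00). WT replicate 1 had 340 CPM, and WT replicates 5 and 6 had 361 and 338 CPM.

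Rpl23a and Rpl35, both at the exit of the peptide tunnel, had positive fold changes and are 2 of the 4 uncertain genes above. Rpl23a (chr11:78180932-78183584) had 8.08, 16.4, 7.92 and 9.28 CPM in KI-96, against 2.66 to 6.73 CPM in WT with a median of 6.10. The groups did not overlap, which held for 1 of 82 members in the higher direction, against 0.635% of all genes. Its log2 fold change was 0.90 (SE 0.23, adjusted p 0.296), and without KI-96 replicate 2 it was 0.59. Rpl35 (chr2:39001580-39005624) had 22.6, 38.9, 6.66 and 18.2 CPM in KI-96, and 4.38 to 15.1 CPM with a median of 9.16 in WT (log2 fold change 1.12, SE 0.36, adjusted p 0.360). KI-96 replicate 2 was the highest and replicate 3 lay within the WT range. Without replicate 2 the value for Rpl35 was 0.68, and without replicate 3 it was 1.43. With the libraries of high Xist marked, the fold changes were 0.63 for Rpl23a and 0.51 for Rpl35. Rpl22l1, a paralog of Rpl22, also had a positive fold change (0.58, SE 0.24, adjusted p 0.405 by edgeR, and 0.80 without replicate 3). It had 11.7, 17.2, 6.22 and 13.3 CPM in KI-96, and 4.48 to 12.3 CPM with a median of 8.22 in WT. KI-96 replicates 1 and 3 lay within the WT range. As for Rpl23a and Rpl35, KI-96 replicate 2 was the highest KI-96 library and WT replicate 4 the lowest WT library.

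Among the negative fold changes, Rps27 (chr3:90212522-90213651) had 158, 117, 87.2 and 199 CPM in KI-96, and 171 to 243 CPM with a median of 203 in WT. Replicates 1, 2 and 3 lay below every WT library and replicate 4 within them. The log2 fold change was -0.53 (SE 0.17, adjusted p 0.343 by edgeR), without replicate 3 it was -0.35, and with the libraries of high Xist marked it was -0.28. Rpl37a, a small zinc-finger protein of the large subunit, had 191, 133, 68.8 and 204 CPM in KI-96 and 153 to 238 CPM in WT (log2 fold change -0.43, adjusted p 0.482, and -0.19 without replicate 3). Rps26, at the mRNA exit of the small subunit, averaged 108 ± 32.3 CPM in KI-96 and 132 ± 23.0 CPM in WT (-0.30, adjusted p 0.534, and -0.12 without replicate 3).

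**Figure D3:**
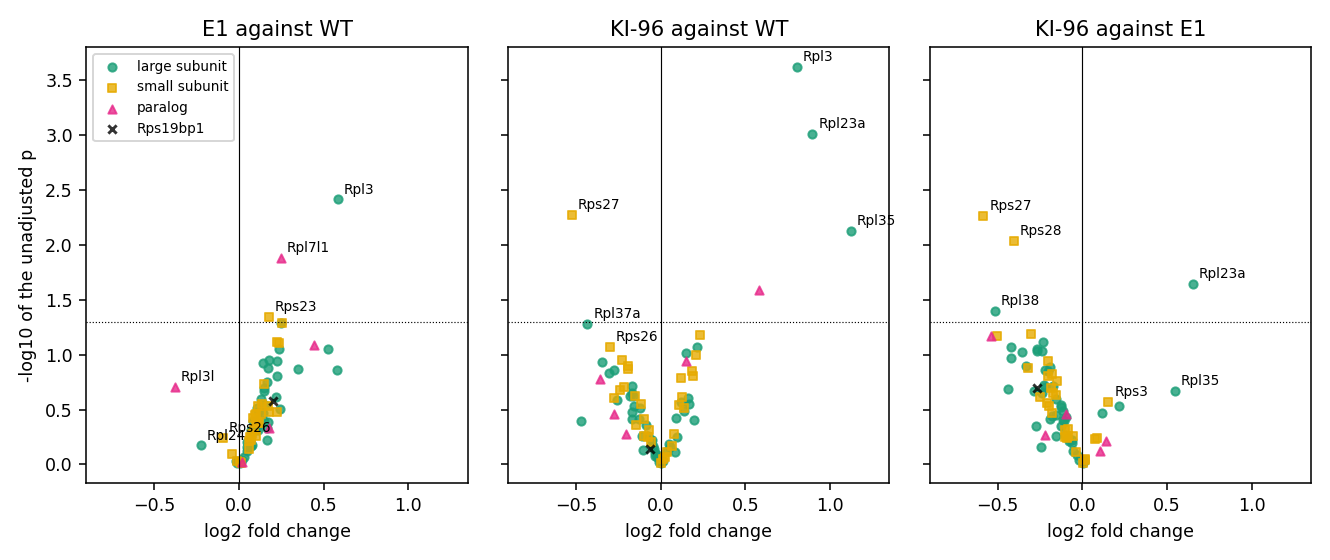
Log2 fold change (horizontal) and -log10 of the unadjusted p by edgeR (vertical) of the 82 tested members in each comparison, marked by class; the dotted line marks the unadjusted threshold of 0.05. In E1 against WT 75 of 82 lie right of 0, in KI-96 against WT 34 and in KI-96 against E1 14. Each pair of panels shares the libraries of a group, so they are not independent.

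KI-96 and E1, which share high Xist, were then compared directly. No member passed the threshold: 0 of 82 by edgeR, with 0% of all genes called, and 0 by DESeq2 (1.13% of all genes) and limma-voom (0%). There were 4 members at an unadjusted p under 0.05, against 14.3% of all genes. Of these, 1 was higher in KI-96 (7.84% of all genes) and 3 were lower (6.42%). No member was lower in KI-96 without overlap, against 2.5% of all genes. The median log2 fold change was -0.16 with 14 of 82 positive, and 49.4% of all genes were positive. Without KI-96 replicate 3 the median was -0.01 with 39 of 82 positive, so the median rested on that library. Cell type markers also differed: 8 of 10 cortical markers and all 5 blood genes had negative fold changes in KI-96 against E1. Without KI-96 replicate 3, 9 of 9 myelin and 6 of 6 astrocyte markers were positive in that comparison (medians 0.32 and 0.15). Of the ependymal markers 0 of 4 were positive (-0.82). The part of these cell types was not tested. The cortical markers were negative for 8 of 10 in KI-96 against WT as well.

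Rps27 had 158, 117, 87.2 and 199 CPM in KI-96, against 220, 204, 187 and 230 CPM in E1 (log2 fold change -0.58, SE 0.18, adjusted p 0.224 by edgeR). KI-96 replicate 4 lay within the E1 range and the other 3 below it. Rps28, which sits at the mRNA exit channel (chr17:33819027-33824562), had 94.3, 90.5, 79.0 and 134 CPM in KI-96, against 129, 129, 126 and 143 CPM in E1 (-0.41, SE 0.14, adjusted p 0.243). Here too replicate 4 lay within the E1 range. Without replicate 4 both passed the threshold, each with an adjusted p of 0.0443 by edgeR, in a fit that called 0.687% of all genes. Fold changes were then -0.81 for Rps27 and -0.58 for Rps28. Leaving out this library takes away the overlap with E1, so that fit favours a difference. Without replicate 3 the fold changes were -0.41 and -0.31, with adjusted p-values of 0.420 and 0.468 by edgeR. Rpl38, known in mouse development for its part in Hox mRNA translation, had 114, 103, 56.1 and 174 CPM in KI-96, and 160, 171, 133 and 175 CPM in E1 (-0.52, SE 0.23, adjusted p 0.326). Its fold change was -0.29 without KI-96 replicate 3.

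In the higher direction, Rpl23a did not overlap between KI-96 (7.92 to 16.4 CPM) and E1 (5.95 to 7.35 CPM), which held for 1 of 82 members and 2.29% of all genes. Its log2 fold change was 0.65 (SE 0.26, adjusted p 0.283), and 0.35 without KI-96 replicate 2. Rpl35 averaged 21.6 ± 13.4 CPM in KI-96 and 14.8 ± 3.15 CPM in E1 (0.55, adjusted p 0.557), without replicate 2 this was 0.10, and without replicate 3 it was 0.85. Rps3, a protein of the mRNA entry channel, averaged 358 ± 82.1 CPM in KI-96 and 321 ± 31.7 CPM in E1 (0.15, adjusted p 0.605, and 0.27 without replicate 3).

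**Figure D4:**
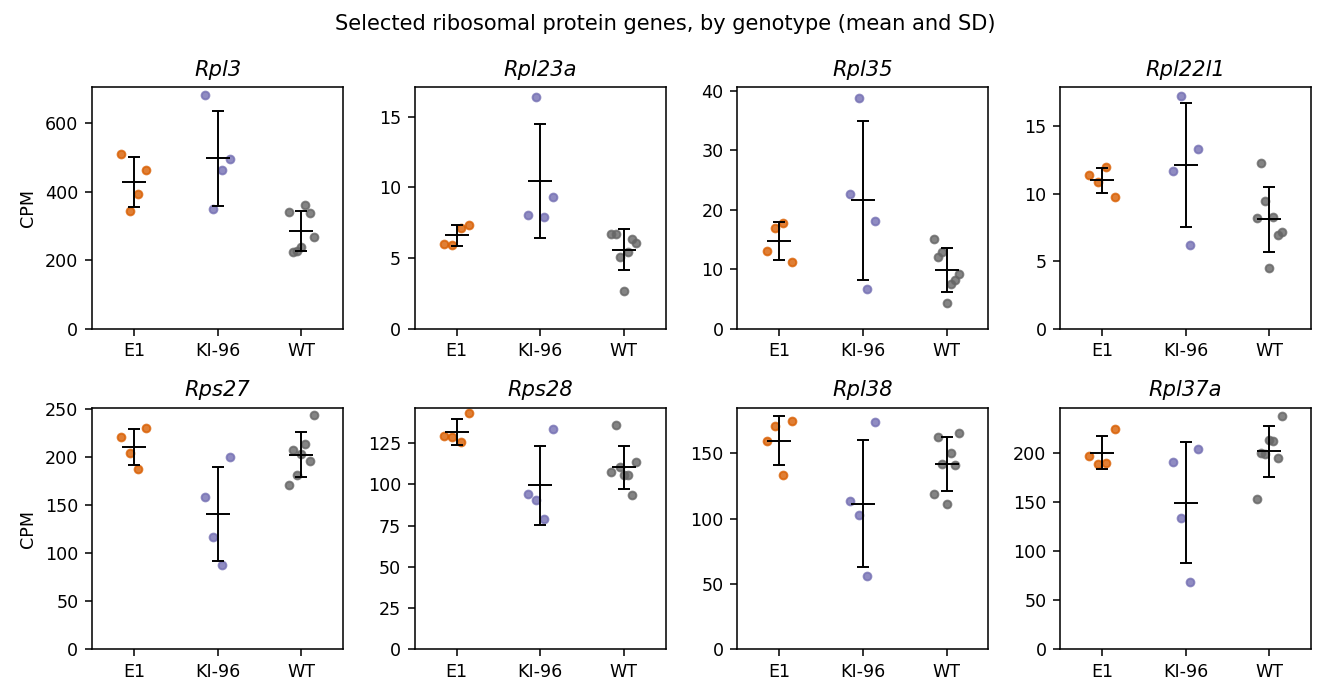
CPM in each library (points) with group mean and SD (bars) for 8 members with small p in a comparison. For Rps27 and Rps28, KI-96 replicate 4 (199 and 134 CPM) lies among the E1 libraries while the other 3 KI-96 libraries lie below them, and for Rpl23a and Rpl35 KI-96 replicate 2 (16.4 and 38.9 CPM) stands apart.

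Members with well-known roles outside or at the edge of the ribosome were read one by one. Rpl5 and Rpl11, which with the smallest ribosomal RNA can bind Mdm2, averaged 190 ± 6.35 and 229 ± 8.79 CPM in E1, 191 ± 26.7 and 213 ± 62.4 CPM in KI-96, and 173 ± 7.26 and 205 ± 12.1 CPM in WT. Rps6, the target of S6 kinase, averaged 196 ± 8.50 CPM in E1, 198 ± 40.4 in KI-96 and 181 ± 10.2 in WT. Rpsa, also described as a laminin receptor, averaged 453 ± 25.4, 426 ± 114 and 414 ± 26.4 CPM in the same order of groups. Of the stalk, Rplp0 averaged 214 ± 18.8 CPM in E1, 201 ± 49.7 in KI-96 and 183 ± 22.8 in WT; Rplp1 and Rplp2 had fold changes of 0.02 and 0.05 in E1 against WT. Rps27a, made as a fusion with ubiquitin, had 0.01 and the very short Rpl41 had 0.16. Smallest adjusted p of these 9 genes over the 3 comparisons was 0.440, for Rpl41 in KI-96 against E1, where its fold change was -0.42 (-0.17 without KI-96 replicate 3). The 4 tested members on the X chromosome, Rpl10, Rpl36a, Rpl39 and Rps4x, had log2 fold changes of 0.07 to 0.15 in E1 against WT and -0.28 to 0.08 in KI-96 against WT.

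Paralogs were read as ratios to their parent within a library, which do not depend on library scaling. Of the pairs, 6 passed the filter, giving 18 tests by exact two-sided permutation (330 splits with WT, smallest possible p 0.00303; 70 splits between KI-96 and E1, smallest possible 0.0286). None had an adjusted p under 0.05. Rpl3l to Rpl3 had a mean log2 ratio of -9.22 ± 0.416 in E1 and -9.31 ± 0.553 in KI-96, against -8.26 ± 0.634 in WT (SD; exact permutation p 0.0242 and 0.0273, adjusted p 0.123 for both). Rpl7l1 to Rpl7 was -2.38 ± 0.0244 in E1 and -2.36 ± 0.0839 in KI-96, against -2.56 ± 0.124 in WT (exact permutation p 0.0152 and 0.0242, adjusted p 0.123 for both). Without KI-96 replicate 3 the differences of KI-96 from WT were -0.91 for Rpl3l and 0.21 for Rpl7l1 (exact permutation, adjusted p 0.270 and 0.188). Rpl3l itself had only 0.546 to 1.45 CPM over all libraries. Its ratio also carries the difference in Rpl3 given above, and is not a separate result from it. Rpl22l1, a paralog of Rpl22 that is known to be repressed by it, stood at -3.08 ± 0.183 in E1, -2.92 ± 0.457 in KI-96 and -3.52 ± 0.458 in WT relative to Rpl22 (adjusted p 0.291 and 0.229, exact permutation test). Rps27l and Rps27rt to Rps27, and Rps4l to Rps4x, had adjusted p-values of 0.629 to 0.886 in the exact permutation test. Rps4l is annotated as a transcribed pseudogene and is not a member. Of the windows of Rps27, 98.4% are copied in another gene, so its counts and those of its paralogs are uncertain.

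Several processed pseudogenes had counts in some libraries and next to none in others. Of 25 pseudogenes with over 1 CPM that copy a window of a member, 9 had a range of over 8-fold between libraries. They were picked out after their values were seen. For Rpl34, Rpl29 and Rplp0, the libraries with counts on the copy were those, or among those, with fewest on the parent. For Rps7, Rps13 and Rpl11 they were not, and for Rpl15 this held in E1 but not in WT. The copies match the parents' coding sequence at 99.4%, 99.4% and 98.7% of 351, 480 and 951 bases, and Rpl3-ps1 matches Rpl3 at 99.8% of 1209. The following coding stretches of 60 bases (GENCODE, GRCm38, sense strand; position counted from the first base of the start codon) show how few letters separate them, with differing bases in capitals:
Rpl34, chromosome 3, bases 73 to 132: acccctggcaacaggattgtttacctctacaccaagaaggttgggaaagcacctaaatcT
Rpl34-ps1, chromosome 6: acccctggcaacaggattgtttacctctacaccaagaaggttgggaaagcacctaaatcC
Rpl29, chromosome 9, bases 13 to 72: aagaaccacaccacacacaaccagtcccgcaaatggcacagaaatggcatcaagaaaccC
Gm13841, chromosome 5: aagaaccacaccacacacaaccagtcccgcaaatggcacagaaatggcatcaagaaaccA
Rplp0, chromosome 5, bases 388 to 447: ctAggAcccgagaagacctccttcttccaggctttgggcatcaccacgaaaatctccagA
Gm8730, chromosome 8: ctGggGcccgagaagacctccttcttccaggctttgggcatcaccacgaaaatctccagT
Rpl3, chromosome 15, bases 1 to 60: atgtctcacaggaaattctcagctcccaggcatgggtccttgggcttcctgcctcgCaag
Rpl3-ps1, chromosome X: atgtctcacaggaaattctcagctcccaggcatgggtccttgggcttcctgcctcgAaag

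Rpl34-ps1 had 17.4 CPM in KI-96 replicate 4 and 18.004, 39.5 and 25.5 CPM in WT replicates 1, 3 and 4, and at most 1.31 CPM in the other 11 libraries. Rpl34 itself had 105 CPM in that KI-96 library and 90.7, 47.2 and 94.0 CPM in those WT libraries. It had 110 to 167 CPM in the others, so the 4 libraries with the copy were its 4 lowest. Gm13841 had 3.57, 2.89 and 8.01 CPM in WT replicates 5, 6 and 7, and at most 0.160 CPM elsewhere. Rpl29 had 118, 109 and 43.6 CPM there, the 3 lowest WT values, against 143 to 178 CPM in the other WT libraries. Only KI-96 replicate 3, with 75.5 CPM of Rpl29 and none of the copy, was as low without it.

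Gm8730 had 20.7 and 43.4 CPM in WT replicates 6 and 7 and at most 0.946 CPM elsewhere. Rplp0 had 159 and 143 CPM in those 2 libraries, below the 186 to 201 CPM of the other WT libraries. KI-96 replicate 3 was as low, with 145 CPM of Rplp0 and 0.546 CPM of the copy. Rpl29 and Rpl34 were also the first and the third by spread in WT, with SDs of log2 CPM of 0.70 and 0.57, beside 0.59 for Rpl35. The narrowest were Rps3a1, Rpl23 and Rpl5, with 0.06 each. E1 had none of the 3 copies above 0.786 CPM, and its SDs for Rpl29 and Rpl34 were 0.11 and 0.04.

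Rpl3 and its copy on the X chromosome, which share 76.1% of windows, followed a related pattern. Rpl3-ps1 had 3.18 and 2.78 CPM in E1 replicates 1 and 4 and 5.67 and 1.96 CPM in KI-96 replicates 1 and 4. In those libraries Rpl3 had 508, 463, 682 and 495 CPM, the 4 highest values, although the lowest of them is next to the 462 CPM of KI-96 replicate 3. In the other 4 E1 and KI-96 libraries the copy had 13.3 to 27.6 CPM and Rpl3 had 343 to 462 CPM. In WT the copy had 11.5 to 25.7 CPM. Libraries of WT with 11.5 to 15.0 CPM of the copy had 338 to 361 CPM of Rpl3, and those with 22.0 to 25.7 CPM had 225 to 266 CPM. At 22.0 CPM or more of the copy, KI-96 replicates 2 and 3 had 349 and 462 CPM of Rpl3, above the 225 to 266 CPM of the 4 WT libraries. At 11.5 to 15.0 CPM, E1 replicates 2 and 3 had 343 and 394 CPM, against 338 to 361 CPM in 3 WT libraries. The part of read placement in the level of Rpl3 was not tested.

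Of the other 5 copies, none had its highest libraries at the lowest values of the parent throughout. Gm6472, a copy of Rps7 on the X chromosome, had 14.5 to 32.1 CPM in WT replicates 3 to 7 and at most 1.89 CPM elsewhere, while Rps7 had 187 to 224 CPM in those libraries and 206 and 202 CPM in WT replicates 1 and 2. Rps13-ps1 had 6.85 and 7.27 CPM in WT replicates 5 and 6 and at most 0.437 CPM elsewhere, and Rps13 had 105 and 95.2 CPM there, within the 88.2 to 127 CPM of the other WT libraries. Gm10020, the copy of Rpl15, had 4.55 and 3.52 CPM in E1 replicates 2 and 4, where Rpl15 had 158 and 141 CPM, against 161 and 167 CPM in the other E1 libraries. It had 3.65 to 4.12 CPM in WT replicates 3, 5 and 7, where Rpl15 had 134 to 145 CPM, against 128 to 147 CPM in the other WT libraries. The copy thus went with the lower parent values in E1 but not in WT. Gm10036, the copy of Rpl11, was highest in E1 replicate 3 and WT replicate 2, where Rpl11 had 240 and 211 CPM, within or above the range of the other libraries of each group. Gm10275 was lowest in KI-96 replicate 3, as was its parent Rpl12.

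**Figure D5:**
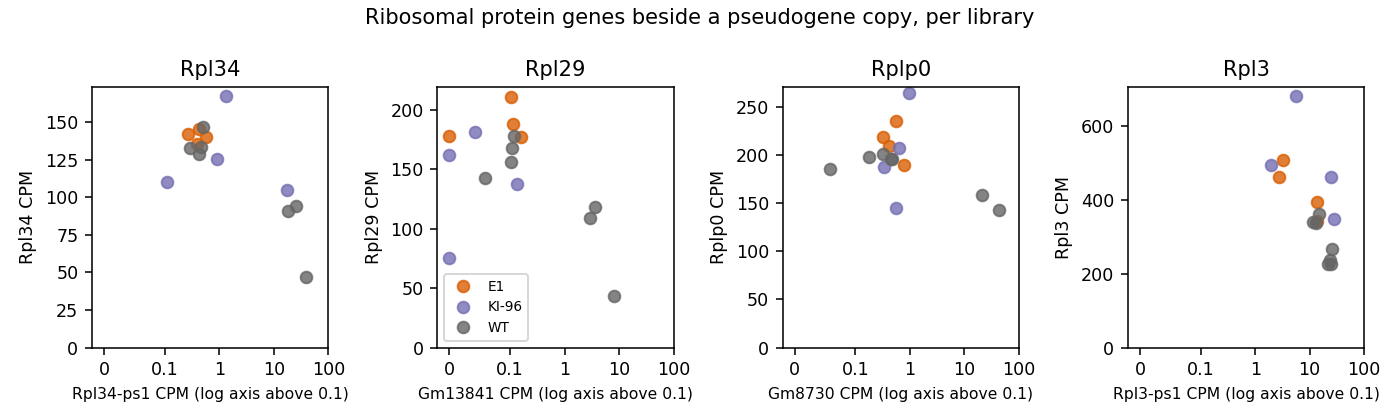
CPM of 4 members (vertical) against CPM of a pseudogene copy (horizontal, log axis above 0.1 and linear below), 1 point per library. For Rpl34, the 4 libraries with 17.4 CPM or more of the copy are the 4 lowest for the parent, and for Rpl3 the 4 libraries with under 6 CPM of the copy are the 4 highest.

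Other genes of the translation pathway were read from fixed lists. None had a gene past the threshold in any comparison by edgeR. In E1 against WT, positive fold changes were found for 18 of 20 other TOP mRNAs (median 0.10), 31 of 49 genes of ribosome biogenesis (0.03), 8 of 17 regulators of TOP translation (-0.02) and 7 of 10 hosts of snoRNAs (0.15). In KI-96 against WT they were 28 of 39 translation factors (0.10), 15 of 20 TOP mRNAs (0.08), 26 of 49 biogenesis genes (0.02), 11 of 17 regulators (0.09) and 2 of 10 snoRNA hosts (-0.19). Respiratory chain subunits had 17 of 74 positive (-0.14) and mitochondrial ribosomal proteins 21 of 77 (-0.07). Leaving out KI-96 replicate 3 gave 47 of 74 (0.05) and 55 of 77 (0.08), and snoRNA hosts 5 of 10 (-0.02). The smallest p was that of the initiation factor Eif2s3x, an X-linked gene known to escape silencing (log2 fold change 0.87, SE 0.18, adjusted p 0.241), followed by the initiation factor Eif3b (0.38, adjusted p 0.298), the RNA-binding protein Tial1 (-0.39, adjusted p 0.309) and the elongation factor Eef2 (0.40, adjusted p 0.309).

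In KI-96 against E1, positive fold changes were found for 18 of 39 translation factors, 9 of 20 TOP mRNAs, 18 of 49 biogenesis genes, 8 of 17 regulators and 0 of 10 snoRNA hosts. Respiratory chain subunits had 9 of 74 positive (median -0.22) and mitochondrial ribosomal proteins 8 of 77 (-0.20), beside 14 of 82 for the cytosolic ribosome (-0.16). Without KI-96 replicate 3 they were 30 of 74 (-0.04) and 22 of 77 (-0.06), beside 39 of 82 (-0.01), and snoRNA hosts were 4 of 10. The smallest p of these lists was that of Mrpl30, a mitochondrial ribosomal protein (-0.40, SE 0.12, adjusted p 0.212 by edgeR). Mtor, the kinase of mTORC1, had 0.39 (adjusted p 0.222, and 0.26 without replicate 3) and its activator Rheb -0.45 (adjusted p 0.235). Mrps10, also mitochondrial, had -0.46 (adjusted p 0.228). Nob1, which cleaves the precursor of the small-subunit RNA, had -0.38 (adjusted p 0.230) and Gnl3, a nucleolar GTPase, -0.44 (adjusted p 0.238).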

How the data were processed

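The values are raw read counts per gene, 1 column for each mouse; their sums differ between columns, so the authors had not normalized the counts they deposited. Per the submitters' processing notes, STAR, HTSeq, DESeq2 1.24.0 and build GRCm38 were used. Strand handling and annotation release are not stated there. GENCODE for GRCm38 gave symbols, types, transcripts and coordinates for 54165 of 54232 identifiers, matched without their version.

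The selection rule leaves out 1 ribosomal protein gene that is not reported here. Members and gene lists were chosen with earlier results of these data known. Genes were filtered with edgeR 4.0.16 (R 4.3.3) by group at a minimum count of 10, leaving 18278. All 15 libraries entered 1 quasi-likelihood fit with trimmed-mean scaling, and p-values were adjusted by Benjamini-Hochberg over all genes, with a threshold of 0.05. The SE is the fold change over the root of its F. CPM uses the scaled library sizes, and log2 CPM a prior count of 2. Levels per kb use 1 principal transcript per gene (RefSeq-matched first, then by annotation rank, support and shortness). Alternatives used DESeq2 1.42.0, limma 3.58.1, other scalings, no filter, left-out libraries, cortical markers as covariate and a block of replicate numbers; the fit with Xist (above 100 CPM) as covariate and the one without KI-96 replicate 3 and the high-cortical libraries were added after the data were seen. The scripts were tested on simulated data.

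Named genes were the 3 with the smallest p in each direction per comparison, the 5 highest and lowest in WT per kb, the 3 widest and narrowest in WT, the paralog pairs and 9 genes of known special role. The related lists had 2 per list and comparison, of which those with the smallest p are given. Other names were chosen after their values were seen. Counts of the 33 pairs of libraries within groups differed beyond counting error (chi-square per degree of freedom at least 7.78). The floor given for Rpl10l covers counting error only. SDs are between libraries, and SEs include the spread between them. Each library came from its own mouse.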

Additional observations from a re-analysis of the deposited data

Results flagged for a closer look

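A library that stood far from the rest of its group was looked for in 126 groups of values, which are 43 quantities (named genes and library summaries) by genotype, without the 3 of Rpl10l, which was 0 throughout. Dixon's limit was passed in 9, and chance passes it in about 1 of 20 groups. Rpl23a had 16.4 CPM in KI-96 replicate 2, against 7.92 to 9.28 CPM in the other KI-96 libraries, and 2.66 CPM in WT replicate 4, against 5.06 to 6.73 CPM in the other WT libraries. Rplp2 had 79.9 CPM in KI-96 replicate 3, and 147 to 160 CPM in the other KI-96 libraries. Rps3a1 had 259 CPM in E1 replicate 2, and 287 to 290 CPM in the other E1 libraries. In WT replicate 7, Rpsa had 469 CPM (395 to 422 in the others) and Rpl36a 99.6 CPM (74.0 to 84.0 in the others). Paralogs near the floor of detection were flagged at Rpl36al with 0.534 CPM in WT replicate 6, and at Rpl39l with 0.154 CPM in E1 replicate 1 and 0.356 CPM in WT replicate 6.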

How the results depend on the processing

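The count of members past the threshold stayed at 0 in E1 against WT under every alternative run. In KI-96 against WT it was 2 with DESeq2 and 1 with the replicate block (Rpl3, adjusted p 0.0171, where 0.0328% of all genes were called), and 0 otherwise. The labels do not say whether equal numbers pair mice. Deviations of same-numbered libraries correlated at -0.10 to 0.19 over 12 pairs, 5 of them above 0.1. E1 replicate 2 and WT replicate 3, of different numbers, reached 0.54, so these correlations cannot decide it. In KI-96 against E1 the count of members past the threshold was 2 without KI-96 replicate 4, and leaving out each library gave 0 to 2. The medians moved by less than 0.24, the SD of the members' mean log2 CPM between libraries, pooled over groups. That SD was 0.40 in KI-96, against 0.04 in E1 and 0.07 in WT, so KI-96 makes this a wide limit. Leaving out 1 library gave 0.10 to 0.13 in E1 against WT. It gave -0.13 to 0.10 in KI-96 against WT and -0.27 to -0.01 in KI-96 against E1. The last 2 moved most with KI-96 replicates 1 and 3.

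Signs turned for few single genes: Rps26 in E1 against WT with the replicate block (0.10) and with Xist as covariate (0.25), where Rpl24 was 0.43 and Eif2s3x -0.21; Rps26 in KI-96 against WT with that covariate (0.042); and Rps3 in KI-96 against E1 with 1 library left out (-0.0031 to 0.27, lowest without KI-96 replicate 1). Paralog ratios near 0 also turned. In KI-96 against E1, Rps27l to Rps27 was 0.050 with CPM + 1, and Rpl3l to Rpl3 was 0.020 without the high-cortical libraries; in E1 against WT, Rps27rt to Rps27 was 0.0095 without them. The cause was not tested.
With 1 library left out, log2 ratios in E1 against WT ran over -0.18 to 0.060 for Rps27rt to Rps27, -0.035 to 0.13 for Rps4l to Rps4x.
With 1 library left out, log2 ratios in KI-96 against E1 ran over -0.015 to 0.35 for Rpl22l1 to Rpl22, -0.34 to 0.048 for Rpl3l to Rpl3, -0.022 to 0.042 for Rpl7l1 to Rpl7, -0.24 to 0.16 for Rps27l to Rps27, -0.13 to 0.25 for Rps4l to Rps4x.
With 1 library left out, log2 ratios in KI-96 against WT ran over -0.12 to 0.28 for Rps27l to Rps27, -0.080 to 0.29 for Rps4l to Rps4x.

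Depth limits the paralogs near the floor and Rpl24, which had under 1 CPM in every library. Placement of reads and strand limit members with copied or overlapped exons. With Xist as covariate, both comparisons with WT rest on 1 WT library of high Xist.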
